A study of Mus musculus with 6 samples.

Results

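This account covers 10 C-type lectin receptor genes of mouse dendritic cells: Clec4a1, Clec4a2, Clec4a3, Clec4d, Clec4e, Clec4n, Clec5a, Clec7a, Clec10a and Mgl2. They were taken by gene symbol from a table of 30587 rows of read counts, and all 10 had a row and enough reads for a test. RNA sequencing compared dendritic cells grown from bone marrow of C57BL/6 mice. WT cells carried floxed alleles of Hif2a (genotype Hif2afl/fl, 3 libraries). KO cells carried the same floxed alleles together with the CD11c-Cre transgene (genotype CD11c-Cre;Hif2afl/fl, 3 libraries), so recombination depends on the promoter of the gene for CD11c. Every culture, WT and KO alike, had first spent 24 h with dimethyloxalylglycine (DMOG), which stabilizes HIF-2α, and then 4 h with the glycolipid α-galactosylceramide. The stated aim was to see how HIF-2α acts on glycolipid priming by dendritic cells. The age of the mice is not given in the sources used here, and cultures without DMOG or glycolipid were not analysed here. Separate animals or cultures behind the 3 libraries of a genotype are not named, so a p-value speaks only of library-to-library spread, which may be technical.

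C-type lectin receptors are membrane proteins of myeloid cells that bind sugars and lipids of microbes and of damaged cells. Activating members signal through an immunoreceptor tyrosine-based activation motif (ITAM), either in their own tail or in the adaptor proteins FcRγ and DAP12, to the kinase SYK and the adaptor CARD9, and so to NF-κB. Inhibitory members carry an inhibitory motif that recruits phosphatases and dampens the same signals.

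Library totals ran from 14668641 to 17884160 counts, and values are given as CPM, the standard scaling of read counts by library size, here with TMM-normalized library sizes. Epas1, the targeted gene that encodes HIF-2α, was covered by 339, 352 and 349 WT reads (libraries 1, 2 and 3) against 175, 214 and 198 KO reads, a log2 fold change of -0.98 ± 0.12 (SE; edgeR adjusted p = 3.45e-05). Both dendritic cell and macrophage genes were present: Itgax, encoding CD11c, averaged 205 ± 16.4 CPM over the WT and 179 ± 32.4 CPM over the KO libraries (SD, n = 3 each), and Csf1r, the receptor for macrophage colony-stimulating factor, at 1446 ± 87.0 and 1482 ± 137 CPM. By the test described below, 13.8% of all tested genes rose in KO and 12.0% fell. Of 13 dendritic cell markers 5 rose and 4 fell, and their summed level was 6328 to 6488 CPM in WT and 5869 to 6572 CPM in KO. Of 12 tested macrophage markers 6 rose and 1 fell (summed over all 13, 4606 to 4905 CPM in WT and 4929.9 to 5405 CPM in KO). Of 9 monocyte markers 4 rose (Ly6c2, Ccr2, Plac8 and Ms4a4c) and 3 fell (F13a1, Chil3 and Cx3cr1), summing to 619 to 635 against 506 to 587 CPM. Within that sum F13a1 alone went from a mean of 175 to 30.8 CPM, while Ly6c2 went from 26.6 to 63.9 CPM. Of 7 tested neutrophil markers 2 rose (Camp and Ngp) and 2 fell (Cxcr2 and Mmp8), and all 11 summed to 623 to 695 against 426 to 482 CPM. Most of that sum was Mmp8, at a mean of 603 CPM in WT and 398 CPM in KO. S100a8, at 15.7 and 14.5 CPM, did not pass. Mast cell and basophil markers rose in 4 and fell in 0 of 5 tested cases, at 51.0 to 58.0 CPM in WT and 82.4 to 89.5 CPM in KO for all 9. Plasmacytoid dendritic cell markers rose in 1 and fell in 0 of 3 tested cases, at 49.5 to 53.2 against 56.4 to 69.3 CPM for all 7. B cell markers summed to at most 2.43 CPM and T and NK cell markers to at most 0.955 CPM in any library, with Nkg7 and Ncr1 of the latter having no row in the table. The part of cell composition in the results below was not tested, and in RNA of whole cultures fewer cells of a type and less RNA per cell cannot be told apart.

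Some receptor genes were higher in KO cells and others lower. In KO cells Clec4a1, Clec4a2, Clec4a3 and Clec7a rose, Clec4n, Clec5a, Clec10a and Mgl2 fell, and Clec4d and Clec4e did not pass the test. The largest change was that of Clec4a1, at 1.96-fold. The 10 genes together made up 2753 to 2939 CPM in the WT libraries and 2799.9 to 2893 CPM in the KO libraries, ranges that overlap. Within that sum the share of Clec7a was 25.0% to 26.6% in WT and 30.5% to 35.6% in KO, whereas the share of Clec4n was 40.4% to 41.7% in WT and 31.9% to 33.4% in KO. Tests were those of edgeR (quasi-likelihood, Benjamini-Hochberg adjustment over all 13249 genes tested, passed at an adjusted p under 0.05), and fold changes are KO relative to WT. By that rule 8 of the 10 changed, 4 in each direction, where 25.8% of all tested genes changed, 13.8% upwards and 12.0% downwards. CPM values of the genotypes did not overlap in 8 of the 10, against 40.4% of all tested genes. The median log2 fold change was -0.04 for the 10 genes and -0.0093 for all tested genes, and the median of its absolute size was 0.39 and 0.18. These receptors were chosen with earlier results of these data known, so such figures describe them and are no test of an excess. The calls of Clec10a and Mgl2 were marginal, as set out below.

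**Figure D1:**
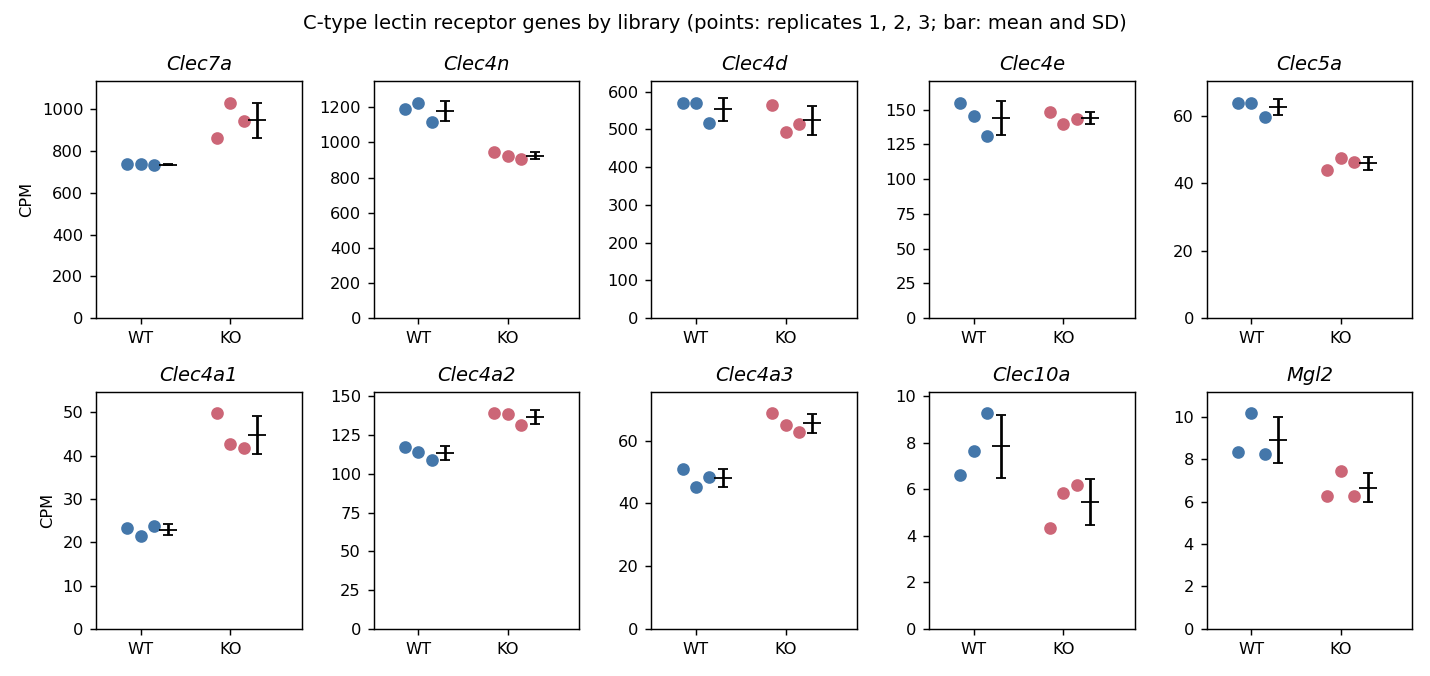
Expression in CPM of each of the 10 receptor genes (vertical axis from 0) in the 3 WT and 3 KO libraries, 1 point per library with the mean and SD beside them. The points of the genotypes are apart in every panel except those of Clec4d and Clec4e.

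Clec7a encodes dectin-1, the receptor for fungal β-glucan, which carries an ITAM-like motif in its own tail (chromosome 6, 129461591 to 129472779, minus strand, mm10; the annotation classes it as a polymorphic pseudogene rather than a protein-coding gene). Its level was 735, 736 and 733 CPM in WT 1, 2 and 3 and 864, 1031 and 943 CPM in KO 1, 2 and 3. The WT libraries lay within a few CPM of each other, and the KO libraries were spread more widely, all above WT. The rise was 1.29-fold (log2 fold change 0.36 ± 0.07, edgeR adjusted p = 0.00109).

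Clec4n encodes dectin-2, which binds fungal mannans and signals through FcRγ (chromosome 6, 123229843 to 123247021, plus strand). It was at 1191, 1226 and 1114 CPM in the WT libraries and at 946, 922 and 906 CPM in the KO libraries, so that every KO library lay below every WT library. The fall was 1.27-fold (log2 fold change -0.35 ± 0.05, edgeR adjusted p = 0.000378).

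Those 2 fungal receptors were compared directly by the ratio of their reads within each library, which needs no scaling. Per read of Clec7a, the WT libraries held 1.62, 1.67 and 1.52 reads of Clec4n, and the KO libraries 1.09, 0.894 and 0.961. The receptor with more reads was Clec4n in all WT libraries and in KO 1, and Clec7a in KO 2 and KO 3. The log2 ratio differed by -0.71 between genotypes, without overlap (exact 2-sided permutation test p = 0.1, the smallest that 3 against 3 libraries can give; 0.167 after Benjamini-Hochberg adjustment over the 5 pairs compared).

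Clec4d, encoding MCL, and Clec4e, encoding Mincle, form a receptor pair for mycobacterial glycolipids and signal through FcRγ. Clec4d (chromosome 6, 123262111 to 123275265, plus strand) was at 571, 569.7 and 518 CPM in WT and at 566, 492 and 513 CPM in KO. Its genotypes overlapped (log2 fold change -0.08 ± 0.07, edgeR adjusted p = 0.448). Clec4e (chromosome 6, 123281789 to 123289870, minus strand) was at 155, 145 and 131 CPM in WT and at 148, 139.7 and 143 CPM in KO. Here the KO libraries fell inside the WT range, with a log2 fold change of 0.00053 ± 0.07 (edgeR adjusted p = 0.996). Reads of Clec4e per read of Clec4d were 0.272, 0.255 and 0.252 in WT and 0.262, 0.284 and 0.279 in KO, which overlap (difference of the log2 ratio 0.08, exact permutation test p = 0.2, adjusted 0.25).

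Clec5a encodes MDL-1, a receptor that signals through DAP12 and is known for its binding of flaviviruses (chromosome 6, 40574894 to 40585821, minus strand). Its level was 63.9, 63.8 and 59.7 CPM in WT and 43.8, 47.4 and 46.3 CPM in KO. All KO libraries were lower, and the groups were well apart. The fall was 1.36-fold (log2 fold change -0.45 ± 0.06, edgeR adjusted p = 0.000161).

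The Clec4a genes belong to the DCIR family, of which Clec4a2 encodes DCIR1, a receptor with an inhibitory tyrosine motif. Clec4a1, encoding DCIR4 (chromosome 6, 122921848 to 122934619, plus strand), was at 23.4, 21.4 and 23.9 CPM in WT and at 49.8, 42.8 and 41.8 CPM in KO. Each KO library was far above the WT range, a rise of 1.96-fold (log2 fold change 0.97 ± 0.09, edgeR adjusted p = 3.06e-06). Clec4a3, encoding DCIR3 (chromosome 6, 122952515 to 122969875, plus strand), was at 50.9, 45.3 and 48.4 CPM in WT and at 68.7, 65.1 and 62.7 CPM in KO. The genotypes did not overlap, and the rise of 1.36-fold (0.44 ± 0.07 on the log2 scale) had an edgeR adjusted p of 0.000273. Clec4a2 (chromosome 6, 123106428 to 123143999, plus strand) was at 117, 114 and 109 CPM in WT and at 139, 138.8 and 131 CPM in KO. It had the smallest rise of the 3, at 1.20-fold (log2 fold change 0.27 ± 0.06, edgeR adjusted p = 0.00418).

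The 3 Clec4a genes thus rose by unequal amounts, which was compared by ratios of reads within a library. Reads of Clec4a1 per read of Clec4a3 were 0.459, 0.474 and 0.493 in WT and 0.724, 0.656 and 0.666 in KO, a difference of 0.52 in the log2 ratio without overlap. Reads of Clec4a2 per read of Clec4a3 were 2.30, 2.52 and 2.25 in WT and 2.02, 2.13 and 2.09 in KO, a difference of -0.18 without overlap. Each gave the smallest p that 3 against 3 libraries allow (exact permutation test p = 0.1, adjusted 0.167), so neither could pass.

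**Figure D2:**
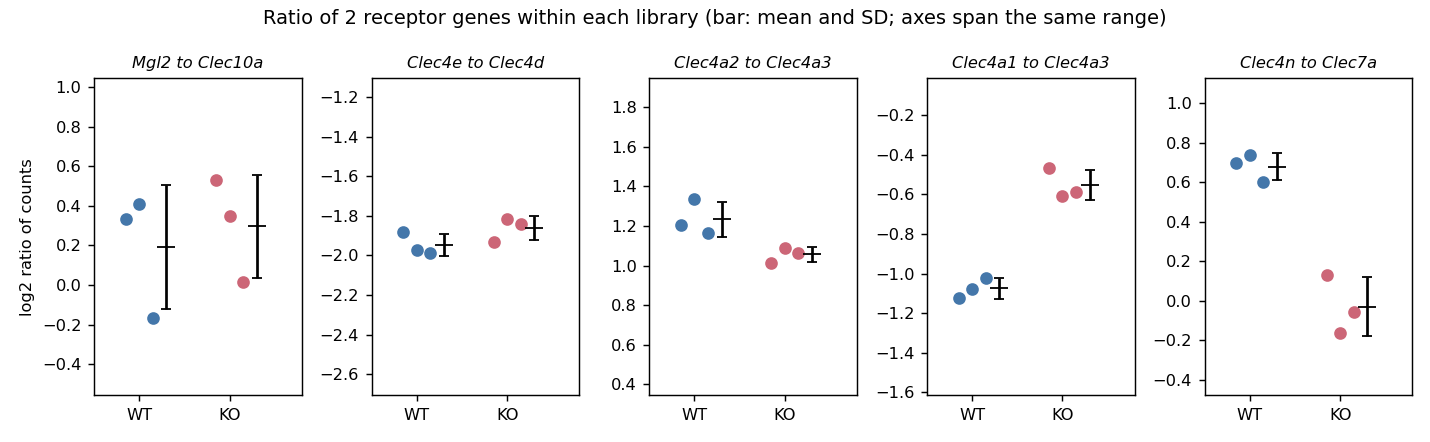
Log2 ratio of read counts (vertical axis, each panel spanning the same range) for 5 pairs of receptor genes, 1 point per library with the mean and SD of 3 WT and 3 KO libraries. The ratios of Clec4n to Clec7a, Clec4a1 to Clec4a3 and Clec4a2 to Clec4a3 separate the genotypes, and those of Mgl2 to Clec10a and Clec4e to Clec4d overlap.

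Clec10a and Mgl2 encode the macrophage galactose-type lectins MGL1 and MGL2, which bind galactose and N-acetylgalactosamine and lie side by side on chromosome 11 (70156197 to 70170834 and 70130329 to 70137550, both plus strand). They were the scarcest of the 10 genes. Clec10a was at 6.62, 7.64 and 9.27 CPM in WT and at 4.33, 5.86 and 6.20 CPM in KO, from 112, 118 and 136 reads against 79, 99 and 107. The KO values reached close to the lowest WT value without crossing it, and the fall was 1.43-fold (log2 fold change -0.52 ± 0.17, edgeR adjusted p = 0.0429). Mgl2 was at 8.34, 10.2 and 8.25 CPM in WT and at 6.25, 7.46 and 6.26 CPM in KO, a fall of 1.34-fold (log2 fold change -0.42 ± 0.14, edgeR adjusted p = 0.0423). Both calls were marginal, being lost in 8 (Clec10a) and 9 (Mgl2) of 15 alternative analyses. Clec10a did not pass without WT 2 (-0.53), WT 3 (-0.38), KO 1 (-0.37), KO 2 (-0.57) or KO 3 (-0.62), and Mgl2 did not pass without WT 1 (-0.46), WT 2 (-0.32), KO 1 (-0.38) or KO 3 (-0.38). With scaling to library size only, or with an offset for GC content and exon length, neither passed (Clec10a -0.49 and -0.51, Mgl2 -0.39 for both), and the same held without WT 2 and KO 1 together (-0.39 and -0.27). Mgl2 also did not pass with no low-count filter (-0.41) or by DESeq2 (-0.42).

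The 2 genes share sequence, as 270 of the 50-base stretches of their transcripts are identical, 8.49% of those of Clec10a and 12.2% of those of Mgl2. Read length is not stated, so the value of each gene alone is uncertain where a read could match both. Their reads were therefore also summed into 1 row, an alternative chosen after seeing the data. Summed, the WT libraries held 253, 275 and 257 reads and the KO libraries 193, 225 and 215, and it was 1.38-fold lower (log2 fold change -0.47 ± 0.11, edgeR adjusted p = 0.00893). It passed with any 1 library left out, at -0.54 to -0.37 (edgeR adjusted p = 0.00745 to 0.0459). The other alternative settings, including those in which the single genes did not pass, were not run on the summed row. Reads of Mgl2 per read of Clec10a, at 1.26, 1.33 and 0.890 in WT and 1.44, 1.27 and 1.01 in KO, overlapped (difference of the log2 ratio 0.10, exact permutation test p = 0.6). Of the other members, Clec4a2 shared 6.83% of its stretches with other genes, mostly Clec4a4 (3.85%), Clec4n shared 0.686%, and Clec4a1, Clec4a3, Clec4d, Clec4e, Clec5a and Clec7a shared none.

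**Figure D3:**
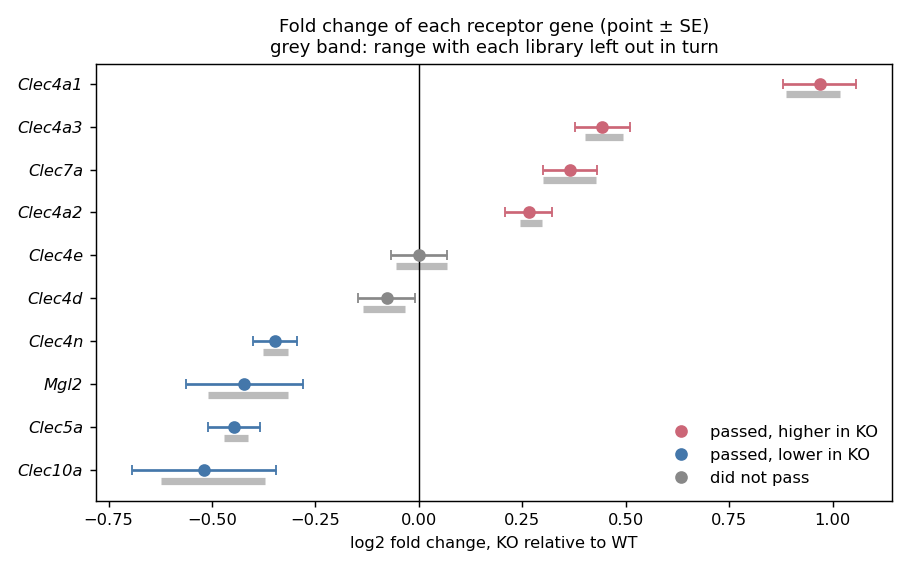
Log2 fold change of each receptor gene, KO relative to WT (horizontal axis), as a point with its SE, coloured by whether it passed, with a grey band for the range over the fits that leave out 1 library. Values run from -0.52 for Clec10a to 0.97 for Clec4a1, and the band of Clec4e crosses 0.

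Per kilobase of annotated exon, the scale on which genes can be set side by side, the levels covered a wide range and their order changed in part. In WT the order was Clec4n (829 ± 40.5 CPM per kb, SD, n = 3), Clec4d (346 ± 19.0), Clec7a (278 ± 0.518), Clec4a2 (38.8 ± 1.495), Clec4a3 (36.3 ± 2.14), Clec4e (28.9 ± 2.47), Clec5a (16.3 ± 0.615), Clec4a1 (14.7 ± 0.825), Mgl2 (4.26 ± 0.516) and Clec10a (2.71 ± 0.461). Ranges of neighbours in that order were separate except for Clec4a2 and Clec4a3. In KO Clec4n still led at 651 ± 14.0 CPM per kb, followed by Clec7a (359 ± 31.7) and Clec4d (327 ± 23.6), whose ranges overlapped. Clec4a3 and Clec4a2 again overlapped, at 49.4 ± 2.27 and 46.6 ± 1.51 CPM per kb. Clec4a1, at 28.7 ± 2.79, had passed Clec5a, at 11.9 ± 0.486, and its range overlapped that of Clec4e, at 28.9 ± 0.862. Annotated exons take in isoforms that these cells may not use, so the order holds for this annotation.

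Of the 10 genes, 6 lie within 368 kb of chromosome 6, in the order Clec4a1, Clec4a3, Clec4a2, Clec4n, Clec4d and Clec4e. The genes in the first part of that stretch rose and those in the last part did not. A further 3 lectin receptor genes lie among them. Clec4b1, which encodes the receptor DCAR and sits between Clec4a3 and Clec4a2, was covered by 40, 40 and 39 WT reads against 78, 83 and 84 KO reads, with no overlap in CPM. It was chosen after its values were seen, and its rise of 1.85-fold (0.88 ± 0.18 on the log2 scale) had an edgeR adjusted p of 0.00245. Clec4a4, encoding DCIR2, and Clec4b2 had 58 and 10 reads over all 6 libraries, too few for a test. All 4 tested genes from Clec4a1 to Clec4a2 rose, and of the 3 from Clec4n to Clec4e 1 fell and 0 rose. That division was placed after the values were seen. Over all tested genes 13.8% rose and 12.0% fell, and the counts were not tested against those shares.

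Other genes near these receptors went both ways. Within 500 kb of a gene of the chromosome 6 cluster, 10 other genes were tested, of which 3 rose (Clec4b1, Apobec1 and C3ar1) and 1 fell (the pseudogene Gm8430). C3ar1, the receptor for the complement fragment C3a, lies 65.7 kb from Clec4a1 and was 1.20-fold higher, while Necap1, at 32.9 kb, had a log2 fold change of 0.02 ± 0.06 (edgeR adjusted p = 0.873). These genes were chosen after their values were seen. Around Clec7a 3 rose and 1 fell of 15. Among them were Cd69, an early activation antigen 186 kb away (log2 fold change 1.32 ± 0.14), and Gabarapl1, an autophagy gene 60.4 kb away (-0.41 ± 0.06). The nearest tested gene there, Clec1a at 9.59 kb, did not pass. Around Clec10a and Mgl2 9 rose and 5 fell of 49. Among them were Mpdu1, needed for use of mannose lipids in glycosylation and 468 kb away (0.30 ± 0.06), and Eno3, an enolase 486 kb away (-0.50 ± 0.09). Slc16a13, the nearest tested gene at 46.0 kb, did not pass. Around Clec5a 0 rose and 1 fell of 4. Over all tested genes 25.8% changed, 13.8% upwards and 12.0% downwards, and the counts near receptors were not tested against that share.

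**Figure D4:**
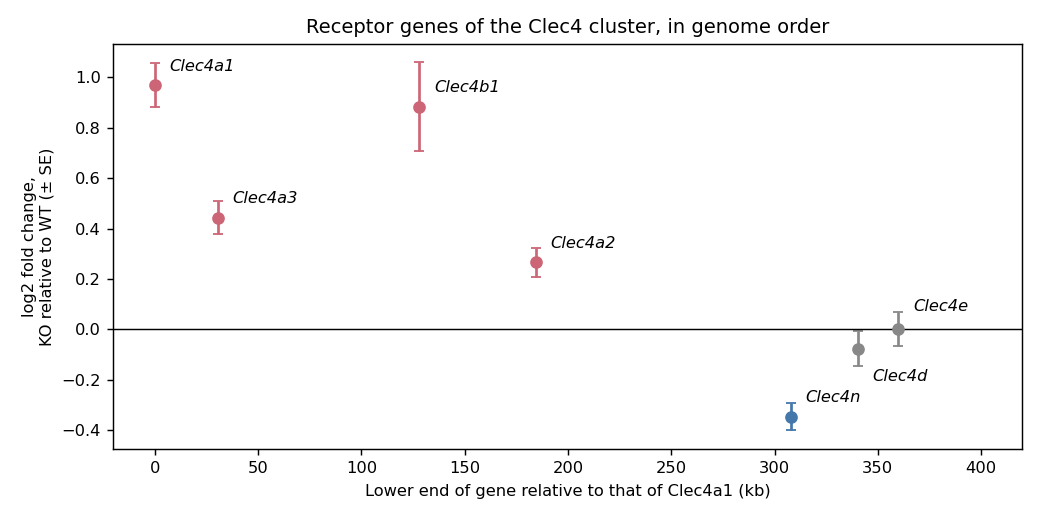
Log2 fold change, KO relative to WT, with its SE (vertical axis) for the 7 tested lectin receptor genes of the Clec4 cluster, against the lower end of each gene relative to that of Clec4a1 in kb. The 4 genes up to Clec4a2 lie above 0, Clec4n lies below it, and Clec4d and Clec4e lie close to it.

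Promoters are shown for 4 genes, from 250 bases before to 50 bases after the RefSeq start (GRCm38.p6, the mm10 build; 8 of the 10 genes were matched). Clec4a1 and Clec4a3 are neighbours that both rose, Clec7a is the most abundant gene that rose, and Clec5a fell. Letters run 5′ to 3′ on the gene's strand, with motif matches in capitals. For Clec4a3 the second of 2 listed starts is shown, since it is the one that resembles Clec4a1.
Clec4a1, chr6:122921598-122921897, plus strand: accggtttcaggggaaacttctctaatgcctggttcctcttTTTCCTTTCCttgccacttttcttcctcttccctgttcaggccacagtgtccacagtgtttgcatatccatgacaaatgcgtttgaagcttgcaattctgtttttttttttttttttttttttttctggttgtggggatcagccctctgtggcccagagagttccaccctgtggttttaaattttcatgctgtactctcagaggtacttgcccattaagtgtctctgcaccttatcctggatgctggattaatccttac
Clec4a3, chr6:122952394-122952693, plus strand: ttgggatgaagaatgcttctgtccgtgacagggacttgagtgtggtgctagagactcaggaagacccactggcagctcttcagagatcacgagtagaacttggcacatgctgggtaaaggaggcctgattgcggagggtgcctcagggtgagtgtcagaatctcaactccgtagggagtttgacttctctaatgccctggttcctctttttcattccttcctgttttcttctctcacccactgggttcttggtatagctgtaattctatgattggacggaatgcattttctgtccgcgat
Clec7a, chr6:129472730-129473029, minus strand: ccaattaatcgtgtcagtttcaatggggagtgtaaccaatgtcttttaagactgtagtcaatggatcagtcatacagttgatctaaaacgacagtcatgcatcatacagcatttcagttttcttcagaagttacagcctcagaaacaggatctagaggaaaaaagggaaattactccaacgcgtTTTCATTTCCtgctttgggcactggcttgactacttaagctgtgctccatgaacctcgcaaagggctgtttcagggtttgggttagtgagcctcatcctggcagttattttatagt
Clec5a, chr6:40585756-40586055, minus strand: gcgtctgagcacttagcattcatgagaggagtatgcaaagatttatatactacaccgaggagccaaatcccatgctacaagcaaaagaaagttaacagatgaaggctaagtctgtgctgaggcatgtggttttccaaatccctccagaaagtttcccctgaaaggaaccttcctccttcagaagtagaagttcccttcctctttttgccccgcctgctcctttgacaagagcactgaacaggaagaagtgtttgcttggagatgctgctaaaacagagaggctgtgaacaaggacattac

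The motifs searched on both strands were the interferon-stimulated response element (GAAA and GAAA with any 2 bases between), the ETS-IRF composite element (GGAA and GAAA with any 2 bases between), the gamma-activated site (TTCNNNGAA), both cores of the hypoxia response element (ACGTG and GCGTG) and a PU.1 box (GAGGAAGT). In the windows of Clec4a1 and Clec7a the capitals mark a match to the composite element on the opposite strand, starting 209 and 66 bases before the gene start, and 2.72% of the 32851 promoters in the table held such a match. The Clec4a3 window shown and the Clec5a window held none of the 6 motifs. Clec4a1 and the Clec4a3 window shown share an identical run of 17 bases, cctggttcctctttttc, which in Clec4a1 overlaps the match. Of that run, the window of Clec5a, which fell, held 11 bases (ttcctcttttt), and the window of Clec4e, which did not pass, held 10 (ttcctctttt). With the first listed start of Clec4a3 the longest run shared with Clec4a1 was 8 bases. Over the windows of all matched receptors, shown or not, the longest run shared by any other pair was 12 bases, between Clec4a2 and Clec5a. Of the windows not shown, that of Clec4d held an interferon-stimulated response element (3.44% of promoters), that of Clec4a2, whose RefSeq start lies inside the gene span of the GENCODE annotation, a gamma-activated site (8.30%), and that of Clec4e both hypoxia cores (ACGTG in 19.6% of promoters and GCGTG in 32.4%). At the first start of Clec4a3 there was a GCGTG, and the Mgl2 window held none. These matches are descriptions of letters, and binding was not measured.

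Other C-type lectin receptors of myeloid cells also went both ways. Of 33 on a list made with earlier results known, 19 had enough reads. Of these 6 rose and 2 fell, where 13.8% of all tested genes rose and 12.0% fell. Their median log2 fold change was 0.10. Clec4b1, Cd69 and Clec2d, among those that rose, were also counted above as genes near the receptors. Cd72, an inhibitory receptor, went from 9.87 ± 1.03 to 31.0 ± 6.29 CPM (SD, n = 3 each), a rise of 3.14-fold. Cd69 rose 2.50-fold and Clec2d, a ligand of an NK cell receptor, 1.36-fold. Cd302 fell 1.33-fold, and the scavenger receptor gene Colec12 fell 1.37-fold (edgeR adjusted p = 0.0345). Colec12 did not pass without WT 1 (-0.46), WT 2 (-0.43), WT 3 (-0.45) or KO 3 (-0.35), with no low-count filter (-0.44), by DESeq2 (-0.45) or without WT 2 and KO 1 together (-0.46), each of which left 1 gene of the list lower.

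Of the proximal signalling chain, 4 core genes did not pass. Fcer1g, the gene of FcRγ, averaged 381 ± 22.0 CPM over the WT and 380.4 ± 8.14 CPM over the KO libraries, and Tyrobp, the gene of DAP12, 436 ± 46.7 and 430.5 ± 17.0 CPM. Syk stood at 629.6 ± 24.8 and 668 ± 22.0 CPM and Card9 at 35.0 ± 0.815 and 39.0 ± 3.72 CPM. They were chosen after their values were seen (log2 fold changes -0.0034 ± 0.06, -0.02 ± 0.08, 0.08 ± 0.06 and 0.16 ± 0.08; edgeR adjusted p = 0.979, 0.887, 0.319 and 0.184).

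Around that core, 7 of 21 adaptor and kinase genes rose and 2 fell (median log2 fold change 0.08), beside 13.8% and 12.0% of all tested genes. The Src-family kinase gene Fyn rose 1.77-fold and the exchange factor gene Vav3 1.28-fold. The kinase gene Tec fell 1.69-fold, from 138 ± 3.37 to 82.0 ± 1.60 CPM (SD; edgeR adjusted p = 2.42e-07). Hcst, encoding the adaptor DAP10, fell 1.30-fold (edgeR adjusted p = 0.0343) but did not pass without WT 1 (-0.33), WT 2 (-0.32), KO 1 (-0.39), KO 2 (-0.38) or KO 3 (-0.37), with no low-count filter (-0.37) or without WT 2 and KO 1 together (-0.33), each of which left 1 gene of the list lower. By DESeq2 it did not pass either (-0.38). Without WT 1, KO 2 or KO 3, 4 genes of the list rose.

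Downstream, 9 of 26 genes of the CARD9, NF-κB and calcineurin-NFAT arms rose and 3 fell (median 0.10). Over all tested genes 13.8% rose and 12.0% fell. Map3k14, encoding the NF-κB-inducing kinase, rose 1.49-fold, Rel 1.46-fold and the calcium channel gene Itpr1 1.75-fold. Ikbkg, for the NEMO subunit of the IκB kinase, fell 1.23-fold and the calcineurin gene Ppp3ca 1.24-fold.

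Of 13 inhibitor genes 4 rose and 1 fell (median 0.16), beside 13.8% and 12.0% of all tested genes. The phosphatase genes Ptpn22 and Inpp5d rose 1.51 and 1.16-fold and the adaptor gene Dok1 1.16-fold, while Ubash3b, another phosphatase gene, fell 1.14-fold. Ptpn6, encoding SHP-1, the phosphatase recruited by inhibitory motifs, was chosen after its values were seen and averaged 181 ± 5.65 CPM over the WT and 182 ± 5.02 CPM over the KO libraries (log2 fold change 0.0032 ± 0.06, edgeR adjusted p = 0.978). Inpp5d did not pass without WT 1 (0.20), WT 2 (0.21), KO 2 (0.17) or KO 3 (0.22), nor with the GC and length offset (0.135). Ubash3b did not pass without WT 1 (-0.17), WT 2 (-0.21), WT 3 (-0.18), KO 2 (-0.14) or KO 3 (-0.18), nor with library size only (-0.16), with no low-count filter (-0.18) or by DESeq2 (-0.19). The number that rose was 2 without WT 1, WT 2, KO 2 or KO 3 and 7 without KO 1.

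Among 24 genes listed as induced downstream of SYK, 18 had enough reads, of which 7 rose and 2 fell (median 0.30). Over all tested genes the shares were 13.8% and 12.0%. The cytokine genes Il1b and Il6 rose 3.47 and 2.31-fold and the nuclear receptor gene Nr4a1 1.70-fold. Egr2, a transcription factor gene of the same early response, fell 1.67-fold, from 63.7 ± 4.00 to 38.1 ± 6.64 CPM (SD), and the chemokine gene Ccl3 fell 1.26-fold. Ccl3 did not pass with the GC and length offset (-0.19), or without WT 1 (-0.26) or KO 3 (-0.34), each of which left 1 gene lower, and 4 genes rose without WT 3 or KO 3. These genes answer to many other receptors, and their levels were not tied to the lectin receptors by any measurement here.

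**Figure D5:**
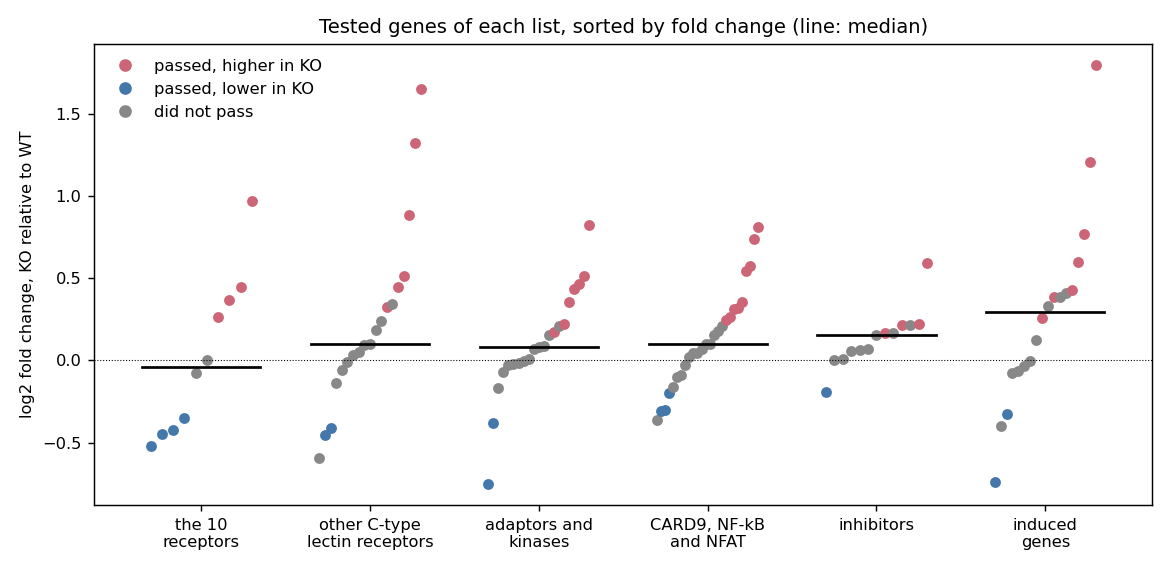
Log2 fold change, KO relative to WT (vertical axis), of every tested gene of the 10 receptors and of 5 lists of related genes, sorted within each list and coloured by whether the gene passed, with the median as a line. The 10 receptors run from -0.52 to 0.97, and each list holds genes that rose and genes that fell.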

How the data were processed

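RNA was sequenced from 6 libraries, 3 per genotype. The authors deposited raw read counts per gene symbol; per the submitters' processing notes the build was mm10, and HTSeq, DESeq2, SAMtools, TopHat2, HISAT and HISAT2 are listed without version or role. The annotation, strand setting, read length and handling of multiply aligned reads: not given in the sources used here. For repeated symbols the row with most reads kept the name and the others were tested under a suffixed name. Rows were kept by filterByExpr (minimum count 10; 13249 of 30587 rows, at least 99.75% of each library's counts), scaled by TMM and fitted on genotype alone (edgeR 4.0.16, R 4.3.3); the SE is the log2 fold change divided by the square root of F. Every pair of replicates differed by more than sampling noise (chi-square per degree of freedom at least 4.10). Positions and exon lengths come from GENCODE M21, which held all 10 receptors. Identical 50-base stretches were sought in its transcripts, on both strands. The procedure was tested on simulated data.

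Named were Epas1, the 10 receptors, up to 3 changed genes per direction and list by lowest p (mean log2 CPM of at least 1), and up to 4 changed protein-coding genes within 500 kb of a receptor. Some genes that this rule names are not reported here. The receptors and lists were chosen with earlier results of these data known. Ratios used the exact 2-sided permutation test. Alternatives were size factors of DESeq2, scaling to library size only, omitting the low-count filter, a strict filter (a minimum of 10 counts in all 3 libraries of a genotype), DESeq2 1.42.0, limma-voom (limma 3.58.1), leaving out each library in turn, WT 2 and KO 1 left out, the replicate number as a block, and an offset for GC content and exon length.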

Additional observations from a re-analysis of the deposited data

How the results depend on the processing

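Over 15 alternatives, Clec4a1, Clec4a2, Clec4a3, Clec7a, Clec4n and Clec5a kept their direction and passed. The 4 receptors that rose stayed 4 throughout. The number that fell, 4, was 2 with library size only, with the GC and length offset and without WT 2 and KO 1, and 2 to 3 with 1 library left out, through Clec10a and Mgl2; the cause was not tested. Over all genes, the 1826 that rose and 1586 that fell became 1182 to 1992 and 945 to 1622 with 1 library left out; both lowest counts were without KO 3 and both highest without KO 1, and without WT 1 1027 fell. The 2 receptors that never passed changed sign: Clec4d was at 0.032 with the offset, and Clec4e at -0.00041 with the strict filter, -0.014 without both WT 2 and KO 1, and -0.055 (without WT 3) to 0.067 with 1 library left out, including -0.021 without KO 1. The log2 ratio of Mgl2 to Clec10a ran from -0.075 (without WT 3) to 0.25 with 1 library left out, including -0.011 without KO 1; the cause was not tested. The other 4 ratios kept their direction with each library left out and with 1 read added to each count. The adaptor and kinase genes that fell, 2, were 4 with the offset.

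No pairing by replicate number was seen: same-numbered WT and KO libraries had correlations of their deviations of 0.0146, -0.110 and 0.0799. Most libraries correlated best with another number. The largest correlation was 0.184, of WT 2 with KO 1, and the lowest -0.210, of WT 3 with KO 1. Deviations from a mean of 3 libraries depend on each other, and a batch shared across genotypes was not tested. With the replicate number as a block 1741 genes rose and 1506 fell, and 4 receptors rose and 4 fell.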
